A study of Mus musculus with 6 samples.

Results

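Gpr155, Gpr171, Gpr183, Gpr65, Gpr174 and P2ry10 are 6 of the 24346 gene symbols listed for each library. They were chosen by symbol as a set of orphan and lipid-sensing receptors, selected on their FPKM (fragments per kilobase of transcript, scaled to the mapped fragments of the library) in these same IgM and IgG1 libraries, with the difference between the groups already known. Those levels and differences are therefore given as a description and not tested. All 6 passed the filter on low values, which kept genes that reached 1 FPKM in 3 or more libraries.

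The libraries came from mouse splenic plasma cells, the antibody-secreting end stage of B cells. Both groups started from congenically marked B1-8germ B cells, which carry a prearranged heavy chain variable region that favours binding of the hapten NP, and which were transferred into wild-type C57BL/6J hosts. The hosts received NP-CGG, the hapten on a carrier protein, in alum on day 0, and on day 7 donor plasma cells were sorted by isotype into IgM (3 libraries) and IgG1 (3 libraries). The sources used here give neither the age of the mice nor the number of animals behind a library, so p-values measure the spread between libraries, which may be technical. The B1-8germ allele, the host strain and the immunisation are shared by both groups, and no non-immunised group was included. The isotype is that of the label.

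Most of these genes encode G protein coupled receptors, which cross the membrane and pass a signal from a ligand to G proteins inside the cell. GPR183 binds oxysterols, chiefly a dihydroxycholesterol made by the enzymes CH25H and CYP7B1, and guides B cells to the outer follicle. GPR65 senses extracellular acidity and raises cyclic AMP. GPR174 and P2RY10 respond to lysophosphatidylserine, and their genes lie near each other on the X chromosome. GPR171 is reported to bind a neuropeptide, BigLEN, cut from the proSAAS precursor (Pcsk1n). GPR155 is set apart: it is a lysosomal membrane protein, also called LYCHOS, that joins a transporter-like part to a receptor-like part and reports lysosomal cholesterol to the kinase complex mTORC1. The group name therefore covers a proton sensor and a lysosomal protein beside the lipid and orphan receptors.

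In GRCm38, the assembly that mm10 names, Gpr155 lies on chromosome 2 from 73341506 to 73386572 and Gpr171 on chromosome 3 from 59096448 to 59101821, both on the minus strand. Gpr183 lies on chromosome 14 from 121952551 to 121965195 on the minus strand and Gpr65 on chromosome 12 from 98268635 to 98276644 on the plus strand. P2ry10 lies on chromosome X from 107088492 to 107104974 and Gpr174 from 107255878 to 107296769, both on the plus strand. All 6 are annotated as protein-coding.

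Promoter sequences are shown for Gpr155, whose level differed most between the groups, and for Gpr65 and Gpr183, whose levels overlapped, because they differ in base composition. Each runs 5′ to 3′ on the gene's own strand from 250 bases before to 50 bases after the annotated start, from RefSeq on GRCm38.p6, which had entries for 5 of the 6 genes (all but Gpr171). Capitals mark matches, on either strand, to the GC box GGGCGG, the octamer ATGCAAAT, the TATA element TATAAA or the purine-rich ETS-type core GAGGAA. The windows are chr2:73386431-73386730 (minus), chr12:98268385-98268684 (plus) and chr14:121965144-121965443 (minus).
Gpr155: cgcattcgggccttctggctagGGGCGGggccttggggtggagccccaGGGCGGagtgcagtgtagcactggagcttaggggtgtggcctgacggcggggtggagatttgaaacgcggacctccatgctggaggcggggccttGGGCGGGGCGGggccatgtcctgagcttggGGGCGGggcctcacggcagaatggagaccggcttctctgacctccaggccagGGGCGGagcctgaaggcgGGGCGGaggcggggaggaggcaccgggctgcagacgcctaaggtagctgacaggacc
Gpr65: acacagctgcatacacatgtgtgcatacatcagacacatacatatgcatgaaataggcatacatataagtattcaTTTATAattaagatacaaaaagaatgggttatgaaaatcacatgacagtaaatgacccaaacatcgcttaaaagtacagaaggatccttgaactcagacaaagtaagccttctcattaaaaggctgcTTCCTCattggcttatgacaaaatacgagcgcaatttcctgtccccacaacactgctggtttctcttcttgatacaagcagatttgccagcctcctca
Gpr183: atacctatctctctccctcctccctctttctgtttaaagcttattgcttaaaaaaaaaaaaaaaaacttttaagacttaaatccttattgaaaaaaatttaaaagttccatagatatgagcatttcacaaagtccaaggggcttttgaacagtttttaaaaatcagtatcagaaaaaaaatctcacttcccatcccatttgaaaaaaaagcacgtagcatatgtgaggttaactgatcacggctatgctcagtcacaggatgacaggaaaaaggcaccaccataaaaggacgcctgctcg

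The Gpr155 window held 7 matches to the GC box, a neighbouring pair sharing a base, 20 CG dinucleotides and 70.3% G and C. Over all 32851 promoters of the table the median was 52.7% G and C with 7 CG dinucleotides, and 35.7% held at least 1 GC box. The windows of Gpr65, Gpr183, Gpr174 and P2ry10 held 0 GC boxes, 2 to 5 CG dinucleotides and 35.3% to 42.3% G and C, counting both annotated starts of P2ry10. Gpr65 had 1 match to the TATA element, found in 13.6% of promoters, and 1 to the purine-rich core, found in 28.3%. The octamer (1.74% of promoters) had no match in any of these windows. These matches describe letters in the windows and were not tied to any factor.

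Gpr155 was at 37.8, 42.7 and 36.4 FPKM in the IgM libraries (1 to 3) against 5.24, 2.24 and 8.15 in the IgG1 libraries. All IgG1 libraries lay below all IgM libraries, and the lowest IgM value was 4.46 times the highest IgG1 value. The means were 39.0 ± 3.32 (SD, n = 3) in IgM and 5.21 ± 2.96 (n = 3) in IgG1, 7.48-fold lower in IgG1, or -2.81 on the log2(FPKM + 1) scale with a standard error (SE) of 0.36. In bulk RNA, fewer cells with a transcript and less transcript per cell cannot be told apart.

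Gpr171, the BigLEN receptor gene, was at 28.7, 37.3 and 27.5 FPKM in the IgM libraries (1 to 3) against 5.95, 3.33 and 7.79 in the IgG1 libraries. The groups again did not overlap, with the lowest IgM value 3.53 times the highest IgG1 value. The means of 31.2 ± 5.37 and 5.69 ± 2.24 (SD, n = 3 each) gave a 5.48-fold lower level in IgG1 (log2 difference -2.31, SE 0.32). Within each group Gpr155 and Gpr171 put the libraries in the same order, with library 2 highest and library 3 lowest in IgM and library 3 highest and library 2 lowest in IgG1.

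Gpr65, the proton sensor gene, was at 22.8, 26.3 and 15.9 FPKM in IgM against 20.7, 16.1 and 17.1 in the IgG1 libraries. These ranges overlapped, with means of 21.7 ± 5.27 and 18.0 ± 2.43 (SD, n = 3 each) and a log2 difference of -0.23 (SE 0.26). Gpr183, the oxysterol receptor gene, was at 9.28, 9.87 and 6.23 in IgM against 7.50, 16.0 and 10.8 in IgG1. Its ranges overlapped as well, with means of 8.46 ± 1.96 and 11.4 ± 4.29 (SD, n = 3 each) and a log2 difference of 0.36 (SE 0.35), and IgG1 library 2 was the highest of the 6 libraries.

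Of the lysophosphatidylserine receptor genes, P2ry10 was at 5.51, 4.37 and 7.53 FPKM in IgM against 4.76, 4.19 and 4.36 in the IgG1 libraries. The groups overlapped, and the IgG1 values lay closer together (5.80 ± 1.60 and 4.44 ± 0.295, SD, n = 3 each; log2 difference -0.30, SE 0.37). Gpr174 had the lowest mean of the 6 in both groups, at 1.25, 1.70 and 2.16 in IgM against 1.82, 3.20 and 0.561 in IgG1. Its IgG1 libraries spanned the whole IgM range, with means of 1.70 ± 0.456 and 1.86 ± 1.32 (SD, n = 3 each) and a log2 difference of -0.02 (SE 0.48).

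**Figure D1:**
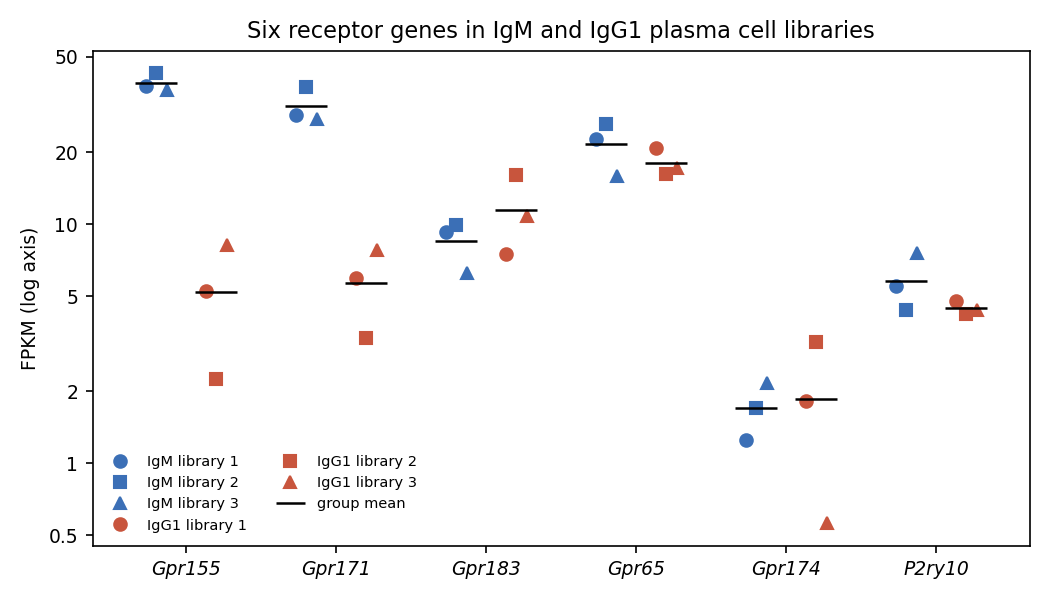
FPKM of the 6 receptor genes (vertical log axis) in each library, with IgM in blue, IgG1 in red, 1 symbol shape per library number and a black line at each group mean. Gpr155 and Gpr171 sit between 27.5 and 42.7 in IgM and between 2.24 and 8.15 in IgG1, while the groups of the other 4 genes overlap.

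In the fit across all genes (limma, Benjamini-Hochberg adjusted p under 0.05), 2 of the 6 members, Gpr155 and Gpr171, were on the called side, both lower in IgG1, beside 1.76% of the 9087 tested genes called lower, 4.26% called higher and 6.02% called in either direction. In the same 2 genes all IgG1 libraries lay below all IgM libraries, beside 13.5% of tested genes. Since the members were chosen with this contrast known, nothing is read from these counts. By size of the log2 difference Gpr155 was the 6th and Gpr171 the 12th lowest of the 9087 tested genes. With pseudocounts of 0.1 and 5, which set how far low values count, the differences were -3.06 and -2.15 for Gpr155 and -2.50 and -1.77 for Gpr171. Without the low-value filter or without the intensity trend neither gene was on the called side.

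**Figure D2:**
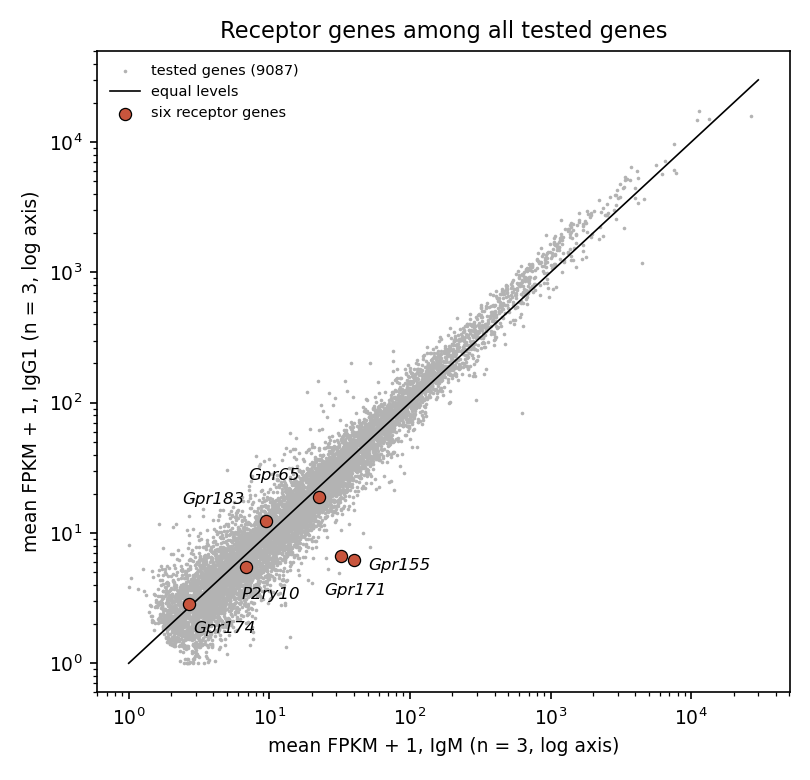
Mean FPKM + 1 of each tested gene in IgM (horizontal log axis) and IgG1 (vertical log axis), n = 3 libraries each, with the 9087 tested genes in grey, the 6 receptor genes in red and a line of equal levels. Gpr155 and Gpr171 lie below the line and outside most of the grey points, and the other 4 receptor genes lie among them.

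The order of the 6 genes by FPKM, a level per transcript length, was not the same in the groups. In IgM cells it was Gpr155, Gpr171, Gpr65, Gpr183, P2ry10 and Gpr174, in which Gpr155 and Gpr171 overlapped, as did Gpr183 and P2ry10, and the other neighbours did not. In IgG1 cells it was Gpr65, Gpr183, Gpr171, Gpr155, P2ry10 and Gpr174. There Gpr65 lay above all others, each neighbouring pair from Gpr183 to P2ry10 overlapped, and Gpr174 lay below P2ry10. In IgG1 library 2, however, Gpr174 (3.20) was above Gpr155 (2.24). Gpr155 had the highest value of the 6 in all 3 IgM libraries and Gpr65 in all 3 IgG1 libraries.

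Together the 6 genes summed to 105, 122 and 95.7 FPKM in IgM libraries 1 to 3 and to 46.0, 45.1 and 48.7 in IgG1. Gpr155 and Gpr171 made up 63.1% to 66.7% of that sum in IgM and 12.3% to 32.7% in IgG1. The sum of the other 4 genes was 37.6 ± 5.29 in IgM and 35.7 ± 3.47 in IgG1 (SD, n = 3 each). Within single libraries, where scaling cancels, the ratio of Gpr171 to Gpr65 was 1.26, 1.42 and 1.73 in IgM and 0.287, 0.206 and 0.456 in the IgG1 libraries. The ratio of Gpr155 to Gpr171 was 1.14 to 1.32 in IgM and 0.672 to 1.05 in IgG1.

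Among all 24346 symbols Gpr155 stood at percentiles 89.9 to 91.0 of FPKM in the IgM libraries and 68.4 to 78.1 in the IgG1 libraries. Gpr171 stood at 87.8 to 90.1 and 71.0 to 77.7 on the same percentile scale. Gpr65 kept to 83.0 to 87.5 and 83.8 to 85.7, and Gpr174 to 63.9 to 66.8 and 63.3 to 70.6.

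The libraries held an estimated 14800000 to 17700000 fragments each. This came from the most frequent low value of FPKM times length among single-transcript genes, taken to stand for a single fragment. It is approximate because the authors' transcript lengths and scaling between libraries are unknown here, and reads split between genes would break that assumption. At that depth Gpr155 rested on about 2570 to 2900 fragments per IgM library and 140 to 530 per IgG1 library. Gpr171 rested on about 1030 to 1340 and 110 to 270, and Gpr174 on about 90 to 180 and 40 to 220. Long transcripts were on the median lower in the IgG1 libraries. The longest 20% of tested transcripts, at or above 4069 nt, had a median deviation from their gene means of 0.10 to 0.23 on the log2 scale in the IgM libraries and of -0.05 to -0.21 in the IgG1 libraries. Gpr155 (4201 nt) and Gpr174 (4614 nt) belong to that class, and Gpr171 (2225 nt) does not. After removal of a length and GC trend from every library the difference was -2.44 (SE 0.38) for Gpr155 and -2.11 (SE 0.35) for Gpr171.

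Plasma cell identity was checked with marker genes. All 10 plasma cell markers were expressed, with Sdc1 at 444 to 614 FPKM and Xbp1 at 5354 to 6862 over the 6 libraries, and 6 of the 10 were called lower in IgG1, beside 1.76% of all tested genes. These were Tnfrsf17, the receptor gene for the survival factors BAFF and APRIL (623 ± 79.0 and 81.9 ± 14.8, SD, n = 3 each), Jchain, Prdm1, Irf4, Slamf7 and Cd28. Their log2 differences were -2.92 for Tnfrsf17 and -1.02 to -0.60 for the other 5. Of 16 alternatives of the fit, Tnfrsf17 was called in 16, Jchain in 13 and Irf4 in 11. Cd28 was called in 10 of them, Prdm1 in 9 and Slamf7 in 7. The summed level of the list was 44925 to 50844 FPKM in IgM and 37483 to 39879 in IgG1. Jchain made up much of these sums, with means of 26835 in IgM and 15751 in IgG1. Among the markers not called, the mean was higher in IgG1 for Mzb1 (13319 and 15063), Xbp1 (5580 and 6636) and Sdc1 (494 and 532). Derl3 was at 592 and 591. Several of the receptors are also known from T cells. Of 14 T cell markers 6 were listed at 0 in every library, among them Cd247, Lat, Il7r and Tcf7. Of these 14, 5 reached 1 FPKM in at least 1 library, and 0 of the 3 tested were called with limma. The summed level was 18.0 to 31.7 FPKM in IgM and 26.9 to 39.8 in IgG1, most of it Cd2 (15.3 to 37.3). Lck was at 1.14 to 2.04 in IgM and 0 to 2.85 in IgG1, and Cd3d at 0.426 to 0.691 and 0 to 2.88. Cd4 was at 0 to 1.43 and 0.128 to 2.43. The summed level of 10 follicular B cell markers was 128 to 157 in IgM and 103 to 128 in IgG1, with Pax5 at 0 throughout and 0 of 5 tested genes called. The 9 myeloid markers summed to 68.6 to 73.4 in IgM and 38.1 to 59.5 in IgG1, mostly Cd68 (56.1 to 58.8 and 34.2 to 40.9). Adgre1 and Cd14 were at or near 0, and 0 of 5 tested genes were called. Lyz2 was at 4.77 to 8.44 in IgM and 0.16 to 5.07 in IgG1, and Csf1r at 1.11 to 2.14 and 0 to 0.0162. Fcer1g was at 1.06 to 2.46 and 1.78 to 11.4, and Tyrobp at 0.775 to 3.94 and 0.219 to 5.92. The 8 NK cell markers summed to 1.17 to 3.86 and 0.961 to 9.20, the 5 neutrophil markers to at most 0.115, and the 8 red cell and platelet markers to 0.778 to 4.75 and 2.48 to 3.17. The part of the plasma cell, T cell, myeloid and follicular B cell genes in the Gpr155 and Gpr171 difference was not tested.

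Gpr171 lies within the body of Med12l, on the opposite strand and without shared exons. Med12l was listed at 0 in all 3 IgM libraries and reached 0.006 FPKM in 1 IgG1 library. The next gene on the minus strand, P2ry14, a receptor gene for UDP-sugars that lies 12034 bases away, was at 15.3, 16.1 and 8.50 in IgM against 11.0, 6.10 and 0.686 in the IgG1 libraries. These groups overlapped (log2 difference -1.40, SE 0.61, limma adjusted p = 0.202), and the P2ry14 difference was -0.58 without IgG1 library 3. The protein-coding neighbours of Gpr155 were low, with Scrn3 at 1.93 ± 1.15 and 2.46 ± 1.47 and Wipf1 at 3.72 ± 1.29 and 3.02 ± 0.786 in IgM and IgG1 (SD, n = 3 each), and neither was lower in every IgG1 library. Gpr183 lies inside Ubac2, which is on the opposite strand and was at 99.0 ± 4.72 and 116 ± 22.7 (SD, n = 3 each). Their exons are not shared. Ubac2 was at 99.2, 104 and 94.1 FPKM in IgM libraries 1 to 3 and at 89.9, 131 and 127 in IgG1. Ubac2 and Gpr183 were both highest in IgG1 library 2 and next highest in IgG1 library 3. Whether reads from unspliced Ubac2 RNA enter the Gpr183 values was not tested. Exons of antisense transcripts overlap those of Gpr155 and Gpr65, and because strand-aware counting is stated nowhere in the labels, reads of the antisense partners may be included in their values.

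P2ry10 has a neighbouring paralog, P2ry10b, listed in the files under the older symbol A630033H20Rik, which RefSeq gives as its synonym. RefSeq also gives P2ry10 as a synonym of P2ry10b, and reads shared by the copies may have been split between them. A630033H20Rik was at 1.58 ± 0.435 FPKM in IgM and 0.598 ± 0.999 in IgG1 (SD, n = 3 each; log2 difference -0.85, SE 0.50, limma adjusted p = 0.36).

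Most other receptor genes were at 0 or too low to be tested. The 123 receptor symbols considered were the 6 members, other lipid, proton, nucleotide and adenosine receptors and all other symbols of Gpr and a number. The last were taken by name, without a check that each encodes a receptor. Of the 123, 60 were listed at 0 in every library and 26 passed the filter. Of the 20 that are not members, limma called 0 higher and 0 lower, and 5 had an unadjusted p under 0.05, beside 2013 of all 9087 tested genes. Their median log2 difference was -0.04, beside -0.05 over all tested genes. The 10 tested genes of the other lipid receptor list had a median of 0.22, which was 0.11 after the length and GC correction, 0.00 after rescaling without Jchain and -0.12 without IgG1 library 1. The 10 tested genes of the numbered Gpr list, which shares Gpr18 and Gpr55 with the former, had a median of -0.04, which was 0.04 after median centring. Tbxa2r, the thromboxane receptor gene, had the highest difference of the 26 and is named after its values were seen. It was at 9.85, 13.9 and 7.59 FPKM in IgM and 16.3, 22.7 and 41.5 in IgG1, without overlap (log2 difference 1.22, SE 0.35, limma adjusted p = 0.0649). Tbxa2r was called with the filter at 5 (adjusted p = 0.047) and without IgG1 library 1 (adjusted p = 0.0352), and Gpr160 was called lower after rescaling without Jchain (adjusted p = 0.0266). By the mean over all libraries the highest numbered Gpr genes were Gpr108, at 112 ± 7.11 and 118 ± 23.8 in IgM and IgG1, and Gpr89, at 73.4 ± 12.5 and 84.1 ± 21.9 (SD, n = 3 each), both with overlapping groups. In the list of other lipid receptors the highest were Gpr18, at 23.3 ± 6.88 and 29.9 ± 15.5, and Gpr55, a receptor gene for lysophosphatidylinositol, at 23.8 ± 2.93 and 16.4 ± 1.87 (SD, n = 3 each). Gpr55 was below all IgM values in each IgG1 library, but its log2 difference of -0.51 (SE 0.23) had a limma adjusted p of 0.224. By mean FPKM Gpr155 ranked 5th and Gpr171 6th of the 123 in IgM, and 20th and 19th in IgG1. Gpr65 moved from 9th to 7th and Gpr183 from 18th to 11th. Whether Gpr155 and Gpr171 differ from the other receptors in their change was not tested.

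**Figure D3:**
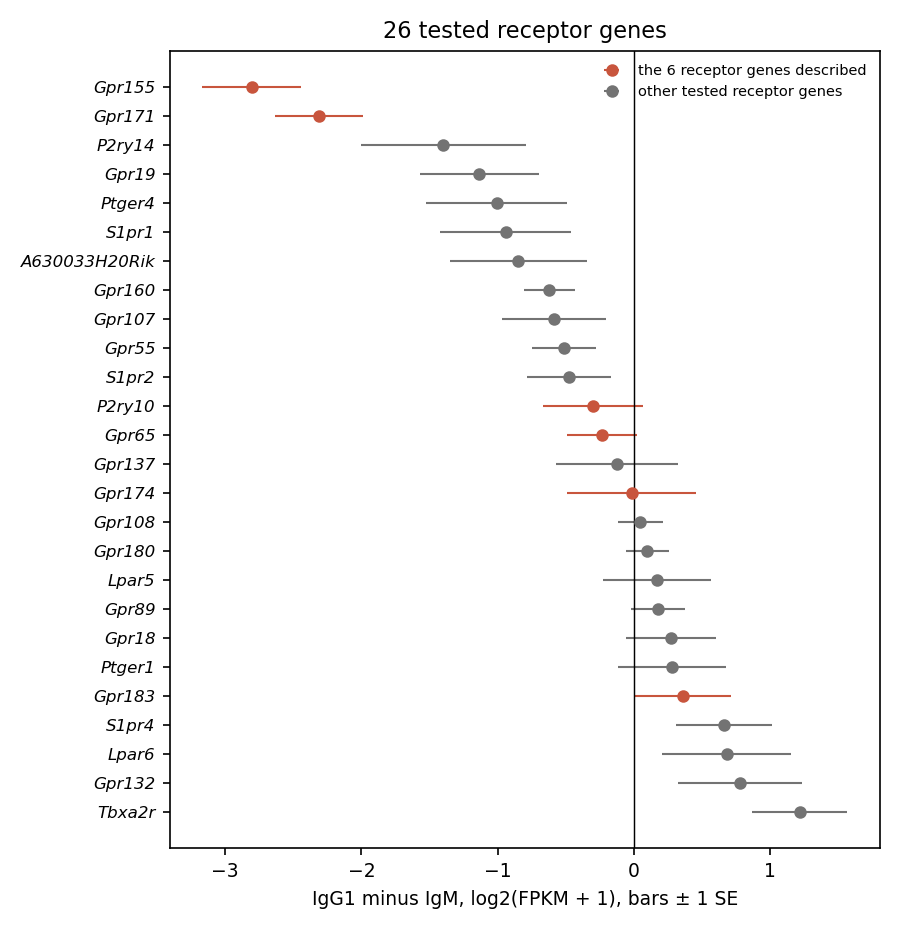
Log2(FPKM + 1) difference, IgG1 minus IgM (horizontal axis), of the 26 receptor genes that passed the filter, sorted by size, with bars of 1 SE from limma (3 libraries per group). Gpr155 (-2.81) and Gpr171 (-2.31), in red, are at the negative end, and the next is P2ry14 at -1.40 (-0.58 without IgG1 library 3).

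Genes for the oxysterol and BigLEN ligands were mostly too low to be tested. Of 5 oxysterol enzymes 1 was tested and 0 called with limma (0 with an unadjusted p under 0.05). The sterol hydroxylase gene Cyp27a1 ranged from 1.90 to 2.29 in IgM and from 0 to 6.91 in IgG1, and Cyp39a1 from 0 to 1.38 and from 0 to 2.02. None of the 4 BigLEN precursor and processing genes was tested, with the precursor gene Pcsk1n at 0.0801 or less and the carboxypeptidase gene Cpe at 0.616 or less in every library. Of the other proton-sensing receptors Gpr132 was the 1 tested, at 1.19 ± 0.185 and 2.98 ± 1.57 (limma adjusted p = 0.35), and Gpr4 reached 0.0425 at most. Of 10 listed genes of the lysophosphatidylserine system 6 were tested and 0 called with limma (0 with an unadjusted p under 0.05), with a median of 0.12 that was -0.10 after rescaling without Jchain. The highest were its lipase genes Abhd12 (42.9 ± 3.77 and 47.1 ± 12.2) and Abhd16a (35.2 ± 2.18 and 39.3 ± 6.27), SD with n = 3 each and overlapping groups. In the nucleotide and adenosine list P2ry14 was the 1 of 11 genes tested, and Adora2a, too low to be tested, was at 0.964 to 1.67 in IgM and 0 to 0.732 in IgG1.

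Genes that work with GPR155 at the lysosome were mostly not called, with 1 of 16 tested called higher and 1 lower, beside 4.26% and 1.76% of all tested genes (median log2 difference 0.04, beside -0.05 over all genes; -0.20 after rescaling without Jchain, where that of all genes was -0.25). The lower gene was Rraga, which encodes the RagA GTPase that recruits mTORC1 to the lysosome. It was at 88.3, 67.1 and 72.9 FPKM in IgM against 26.3, 19.3 and 15.3 in the IgG1 libraries. The groups did not overlap, and Rraga was 3.75-fold lower in IgG1 (log2 difference -1.88, SE 0.22, limma adjusted p = 0.00352). It was below 0.05 without any 1 library (largest adjusted p 0.0254) and after removal of the length and GC trend (-1.85, adjusted p = 0.00181). The Rraga call was lost without the low-value filter (limma adjusted p = 0.0635) and without the intensity trend (limma adjusted p = 0.0661). The higher gene was Lamtor5, a subunit of the Ragulator scaffold, at 173 ± 8.09 and 244 ± 14.3 (SD, n = 3 each; 0.49, SE 0.12, limma adjusted p = 0.0299). Lamtor5 was called in 1 of the 6 fits that leave out a library, and not after the length and GC correction (0.35, adjusted p = 0.122).

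Downstream of the receptors, 3 of 17 tested G protein subunit genes were called higher and 0 lower, beside 4.26% and 1.76% of all tested genes (median 0.43, or 0.19 without IgG1 library 3). After rescaling without Jchain the median was 0.21, with 2 called higher and 1 lower. Gng5, a gamma subunit gene, was at 539, 597 and 495 FPKM in IgM against 806, 885 and 913 in the IgG1 libraries (0.68, SE 0.11, limma adjusted p = 0.00665), and it stayed under 0.05 without any 1 library (largest adjusted p 0.0391). After the length and GC correction the Gng5 difference was 0.38 (adjusted p = 0.0393). Without the low-value filter or without the intensity trend Gng5 was not called (limma adjusted p = 0.069 and 0.159). Gnb1, a beta subunit gene, was at 11.9, 16.3 and 54.5 in IgM against 82.7, 102 and 102 in IgG1 (2.05, SE 0.41, limma adjusted p = 0.0151). IgM library 3 stood above the other IgM libraries for Gnb1, and the call was lost in 3 of the 6 fits that leave out a library (largest adjusted p 0.0613). Gngt2, whose exons overlap those of Abi3, was at 18.0 ± 6.09 and 42.2 ± 12.5 (SD, n = 3 each; 1.19, SE 0.29, limma adjusted p = 0.0361), and was called in 2 of those 6 fits and not after the length and GC correction (0.87, adjusted p = 0.115). Annotated pseudogenes are named after Gng5 and Gnb1, and the way multiply matching reads were assigned could change both values.

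RGS proteins switch G proteins off. Of 4 tested RGS genes 2 were called higher in IgG1 and 0 lower, beside 4.26% and 1.76% of all tested genes (median 0.38). The count was 1 after quantile normalization, rescaling without Jchain or the length and GC correction. It was 0 without the low-value filter and without the intensity trend. Leaving out IgM library 1, IgM library 2, IgG1 library 2 or IgG1 library 3 also gave 0. Rgs3 was at 3.84, 2.92 and 3.59 FPKM in IgM against 9.22, 16.0 and 16.7 in the IgG1 libraries, 4.04-fold higher (log2 difference 1.71, SE 0.36, limma adjusted p = 0.019). Its groups did not overlap, yet the call held in 2 of the 6 fits that leave out a library (largest adjusted p 0.0691). Rgs10 was at 55.2 ± 1.89 and 85.2 ± 6.65 (SD, n = 3 each; 0.61, SE 0.15, limma adjusted p = 0.0334), and its call held in 1 of those fits and not after the length and GC correction (0.39, adjusted p = 0.173).

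**Figure D4:**
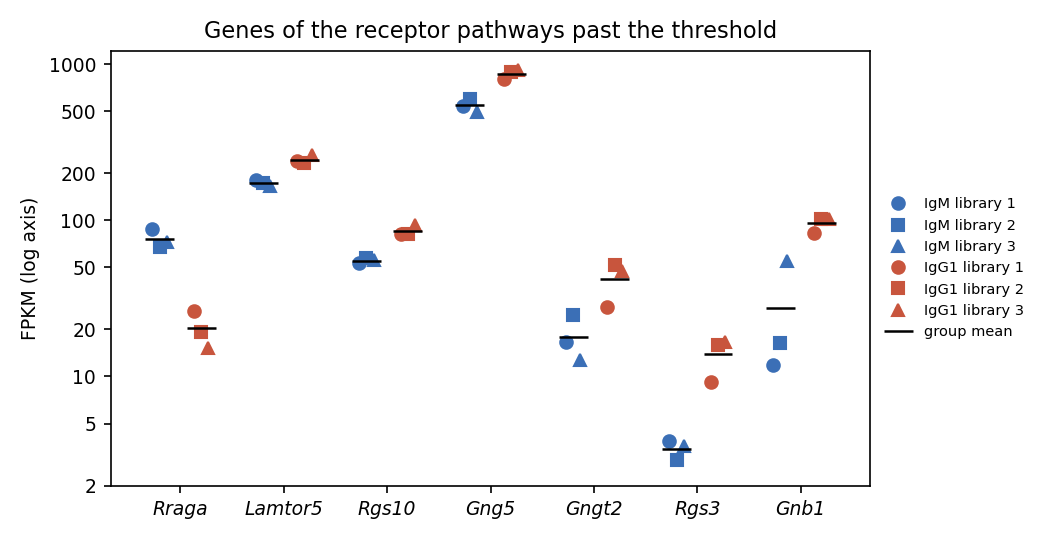
FPKM (vertical log axis) in each library of the 7 genes of the receptor pathways past the threshold, with IgM in blue, IgG1 in red, 1 symbol shape per library number and a black line at each group mean. Rraga is lower in IgG1 and the other 6 genes are higher, and for Gnb1 IgM library 3 lies at 54.5, between the other IgM libraries and the IgG1 libraries.

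The cyclic AMP list and the list of receptor kinases and arrestins had 0 calls with limma. The protein kinase A catalytic subunit gene Prkaca was called higher with the replicate number as a block (adjusted p = 0.0323) and without IgM library 3 (adjusted p = 0.00734). Of 17 tested cyclic AMP genes 3 had an unadjusted p under 0.05, beside 2013 of all 9087, with a median of -0.13 that was positive after quantile normalization (0.13) and after the length and GC correction (0.15). Prkar1a, a regulatory subunit gene of protein kinase A, was at 117 ± 4.13 and 123 ± 18.0, and Crem, a cyclic AMP-responsive transcription factor gene, at 17.4 ± 1.51 and 11.0 ± 4.18 (SD, n = 3 each; adjusted p = 0.23). The 4 tested receptor kinase and arrestin genes had a median of 0.52, which was 0.20 after the length and GC correction, 0.30 after rescaling without Jchain and 0.26 without IgG1 library 3. Of these, 2 had an unadjusted p under 0.05, Adrbk1 (19.6 ± 3.81 and 32.7 ± 6.54, limma adjusted p = 0.105) and Grk6 (13.1 ± 0.874 and 26.1 ± 10.5, limma adjusted p = 0.0948). Both were higher in every IgG1 library than in any IgM library.

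The genes whose pattern over the 6 libraries was most like that of each member were taken as the highest Pearson r of log2(FPKM + 1) among 6274 or 6275 candidates with a mean FPKM of at least 5. These values describe 6 libraries that share their group and depth, and the highest of so many candidates is near 1 by selection. For Gpr155 they were Gpr171 (r = 0.997), the ubiquitin ligase gene Rnf14 (0.994) and the ceramide kinase gene Cerk (0.991), and for Gpr171 they were Gpr155, Rnf14 (0.988) and Bmyc (0.984), all of them higher in every IgM library than in any IgG1 library. Bmyc was at 83.5 ± 6.33 in IgM and 31.7 ± 3.52 in IgG1 (SD, n = 3 each; -1.37, SE 0.17, limma adjusted p = 0.00362), while Rnf14 (27.8 ± 0.948 and 16.3 ± 2.04) and Cerk (46.3 ± 1.45 and 33.4 ± 3.56) had adjusted p of 0.0708 and 0.147. For Gpr183, whose highest library was IgG1 library 2, they were Zfp385c (0.985), Csrnp1 (0.981) and Plgrkt (0.975). For Gpr65 they were Mfsd4 (0.981), the MHC class I light chain gene B2m (0.968) and the ectonucleotidase gene Entpd1 (0.953). For Gpr174 they were Rsl1d1 (0.976), Commd4 (0.974) and Ap1ar (0.974), and for P2ry10 Pcnxl3 (0.983), Lrrc57 (0.982) and the methyltransferase gene Icmt (0.981).

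The direction of the members was compared over 16 alternatives of the fit, or 15 for P2ry10 and Gpr174, which a filter at 5 FPKM removes. Gpr155, Gpr171, Gpr65 and P2ry10 were lower in IgG1 in all of them and Gpr183 was higher in all of them. Gpr174 was lower in 9 of 15. The differences of Gpr155 ran from -3.15 to -2.15 and those of Gpr171 from -2.54 to -1.77. Those of Gpr65 ran from -0.46 to -0.05 and those of P2ry10 from -0.49 to -0.08. Those of Gpr183 ran from 0.10, without IgG1 library 2, to 0.61, and those of Gpr174 from -0.35 to 0.36. In the fit as described the differences of Gpr65 and P2ry10 were smaller than their SE. All alternatives reuse the same libraries, so a kept sign adds no independent support for a direction.

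**Figure D5:**
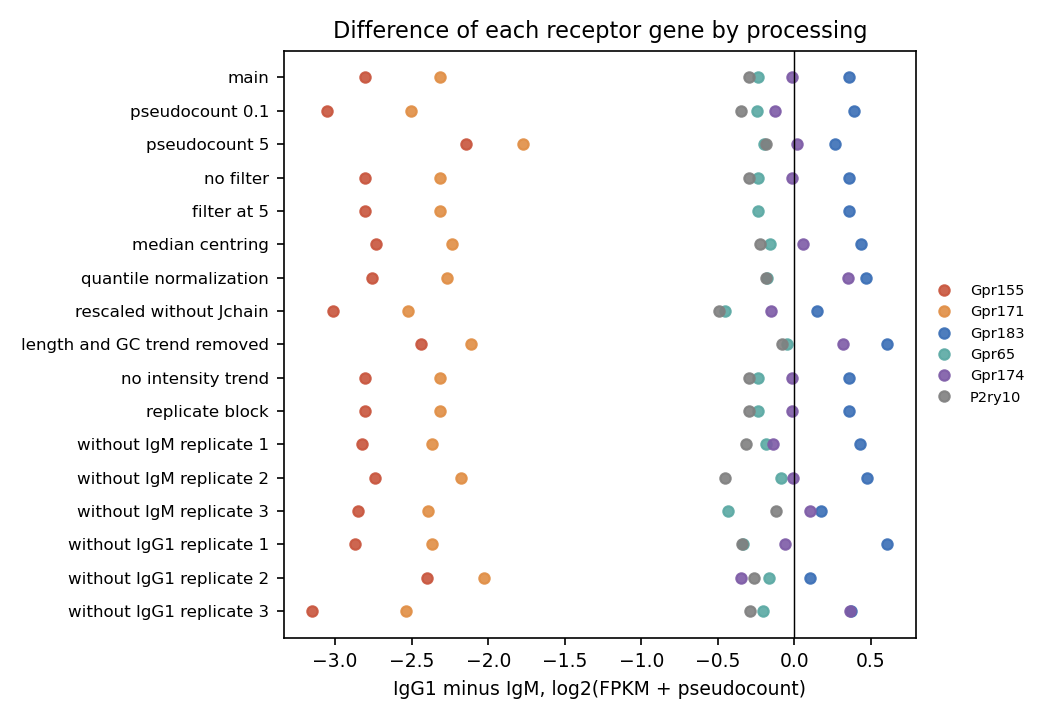
Log2 difference, IgG1 minus IgM (horizontal axis), of each receptor gene under the fit as described (main) and each alternative (rows), 1 colour per gene. Gpr155 and Gpr171 stay at or below -1.77 in every row, Gpr183 stays above 0, and Gpr174 lies on both sides of 0.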

How the data were processed

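RNA of the sorted cells was isolated with a micro column kit, copied into full-length cDNA (SMART-Seq HT) and made into Nextera XT libraries, per the labels' protocols. The submitters' processing notes name TopHat2 2.1.1, Bowtie2 2.3.5.1, Cufflinks 2.2.1, Cuffdiff and the build mm10. How libraries were scaled to each other and which gene annotation was used is not stated there. The values deposited by the authors are FPKM, per the file headers, with 1 value per symbol and library.

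The FPKM were used as deposited. Genes that reached 1 FPKM in 3 or more of the 6 libraries were compared on log2(FPKM + 1), a scale that understates the change of low genes, with limma 3.58.1 in R 4.3.3 (intensity trend, Benjamini-Hochberg threshold 0.05). The procedure was tried on simulated data with independent noise set by the mean level. Such data cannot speak to the calls lost without the filter or the intensity trend. The members, gene lists and tests were chosen with earlier results of these data known. Named were the members, listed genes past the threshold (at most 4 per direction) or else the 2 highest, the 3 most alike genes per member (leaving out clone-type and predicted-gene symbols) and the genomic neighbours. Gene bodies and lengths came from GENCODE vM21 (lengths for 95.7% of symbols), promoters from RefSeq. Depth is unknown apart from the estimate given, so no counting interval was computed. The alternatives are in the closing section. The result of 1 further gene list is not reported here.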

Additional observations from a re-analysis of the deposited data

How the results depend on the processing

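The fit as described called 387 genes higher and 160 lower in IgG1, and 2 members. Without the filter it called 2 higher, 4 lower and 0 members, and without the intensity trend 3, 5 and 0, where Gpr155 and Gpr171 kept differences of -2.81 and -2.31. The cause of the change was not tested. Quantile normalization gave 188 higher and 200 lower, rescaling without Jchain 177 and 393, and removal of the length and GC trend 179 and 81. Of all calls 70.7% were higher ones as described, against 80.6% (median centring), 48.5% (quantile) and 31.1% (without Jchain, where the median over all genes was -0.25 rather than -0.05). Pseudocounts of 0.1 and 5 and a filter at 5 kept both counts within 1.5 times. Leaving out 1 library gave 83 to 398 higher and 29 to 262 lower, with the fewest without IgM library 1, and 2 members in each of the 6 fits. With the replicate number as a block, 432 were higher and 154 lower, with 2 members. Same-numbered libraries had correlations of their deviations of 0.10, -0.03 and -0.000571 and so were not treated as pairs, and not every library correlated best with its own number. Gpr155, Gpr171, the 7 listed pathway genes, the 6 plasma cell markers and Bmyc, all past the threshold as described, kept their direction in the alternatives run, while Gpr174 changed sign. The calls of the genes past the threshold did not all hold, with Slamf7 called in 7 of 16 alternatives. Depth limits Gpr174 most, with about 40 fragments in its lowest library.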
